A study of Mus musculus with 10 samples.

Results

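The upper layers of the cerebral cortex, layers II to IV, hold the callosal and local-circuit projection neurons that are born after the deep-layer neurons. Their identity rests on transcription factors that switch on as progenitors leave the ventricular zone, and messages of several of these genes are already present in the embryonic cortex while most upper-layer neurons are still being made. The genes described here are Cux1, Cux2, Rorb, Mef2c, Bhlhe22, Satb1 and Mdga1. They were taken by symbol from the count tables, and all 7 were found among 43629 gene identifiers and all 7 passed the filter on low counts, which kept 17039 genes. The first 6 encode DNA-binding proteins. Mdga1 does not: it encodes a glycosylphosphatidylinositol-anchored adhesion protein used as an upper-layer marker, so the set is called upper-layer identity genes below.

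RNA came from the dorsal telencephalon of C57BL/6 mouse embryos at E14.5, with 5 control and 5 Dot1l-cKO samples. DOT1L is the histone methyltransferase that places methyl groups on lysine 79 of histone H3, and the comparison asks how upper-layer genes behave when it is deleted. Controls were Dot1l-cKO f/+ without Cre, and therefore carried a floxed Dot1l allele. The mutants were Dot1l-cKO f/f with a Cre knock-in allele on 1 chromosome. The Cre allele, with whatever the knock-in itself changes, and the loss of Dot1l occur together in the mutants and cannot be told apart in these 10 samples. The study describes the controls as littermates, but the labels do not tie samples to litters.

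Libraries held 54202349 to 66556034 counts. The tables' headers carry a number that neither labels nor methods explain: it is 57 for replicates 2 and 3 of both groups, and mitochondrial ribosomal RNA took 0.0471% to 0.492% of counts in those 4 samples but 5.79% to 10.9% in the other 6. Dot1l-cKO replicate 2 stood apart from the other mutants for several of the genes. Dot1l itself measured 37.3 ± 4.04 counts per 1000000 counts (CPM, mean ± SD, n = 5) in controls and 39.4 ± 11.7 in mutants, a log2 fold change of 0.08 (adjusted p = 0.864). The counts are per gene and not per exon, so they do not show whether the floxed part was lost and do not check the genotype. Markers of the labelled tissue were present, with Neurod6, a gene of cortical projection neurons, at 484 and 556 CPM and Eomes, a gene of intermediate progenitors, at 270 and 275 CPM in control and mutant means. The photoreceptor gene Crx had 8 counts in all samples together. The eye marker Dct, by contrast, measured 26.3 CPM in controls (10.4 to 42.3) and 5.09 CPM in mutants. Crx alone therefore does not show that other tissue was absent.

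Expression is given in CPM after library-size scaling by trimmed means, and log2 fold changes are Dot1l-cKO over control from edgeR's quasi-likelihood test, with p-values adjusted over all 17039 genes. A gene is called changed at an adjusted p under 0.05. Because the tissue was sequenced in bulk, fewer cells of a type and less RNA per cell cannot be told apart.

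The upper-layer identity genes did not move as a group. Cux2 and Cux1 fell, Bhlhe22 rose, and Rorb, Mef2c, Satb1 and Mdga1 did not pass the test. Of all genes tested, 7.11% were called, 5.67% as increased and 1.44% as decreased. Among the 7 genes, 1 increased and 2 decreased. The values of the groups did not overlap for 2 of the 7, against 8.34% of all genes. The median log2 fold change of the 7 was -0.15, beside -0.0056 over all genes tested.

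**Figure D1:**
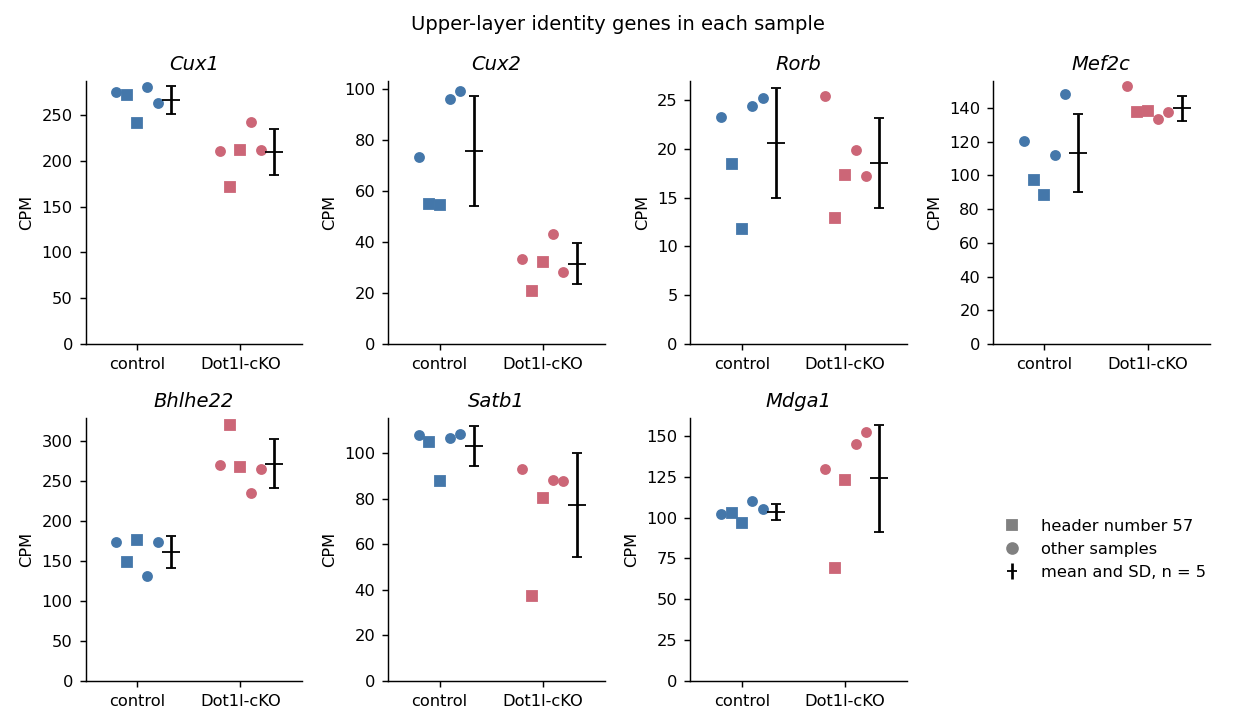
CPM (vertical axes, from 0) of each gene in every sample, with squares for the 4 samples with header number 57, circles for the other 6, and bars for the mean and SD of 5 samples. Only the Cux2 and Bhlhe22 panels show groups that do not overlap, and the lowest mutant square for Satb1 (37.1 CPM) and Mdga1 (69.2 CPM) is Dot1l-cKO replicate 2.

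Cux2 (ENSMUSG00000042589), which encodes a cut-homeodomain factor that shapes dendrites and synapses of layer II to IV neurons and is also found in subventricular progenitors, showed the largest difference of the set. The gene spans chr5:121856366-122050102 on the minus strand of GRCm38. Control replicates 1 to 5 measured 73.3, 55.0, 54.6, 96.2 and 99.3 CPM. Dot1l-cKO replicates 1 to 5 measured 33.3, 20.9, 32.0, 43.0 and 28.3 CPM. Every mutant sample lay below every control sample, and the controls with header number 57 were the lowest controls. The fitted log2 fold change was -1.26 ± 0.22 (SE), a fold of 0.417 with a 95% interval of 0.298 to 0.581 (adjusted p = 0.00576). By the size of its log2 fold change Cux2 ranked 32 among the 246 decreased genes. Taken alone, the samples with header number 57 gave a log2 fold change of -1.03 and the other 6 gave -1.37, and Cux2 was called in 10 of 10 fits that left out a sample.

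The sequence before the Cux2 start listed first in the RefSeq promoter table (GRCm38.p6) is shown because Cux2 changed most. That start lies inside the gene span given above, since another annotated transcript begins farther upstream, and the stretch shown falls within the first intron of that transcript. It is the part of the promoter window that no annotated Cux2 exon covers, 164 bases at chr5:122049852-122050015, read 5′ to 3′ on the minus strand up to the base before the RefSeq start, with each CG pair in capitals.
Cux2: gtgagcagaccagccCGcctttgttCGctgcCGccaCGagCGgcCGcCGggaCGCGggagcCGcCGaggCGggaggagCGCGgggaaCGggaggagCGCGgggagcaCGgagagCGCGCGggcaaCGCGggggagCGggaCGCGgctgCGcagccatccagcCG
It held 28 CG pairs and 78.7% G or C. The median over 32851 RefSeq windows of the same length was 4 CG pairs, and 98.5% of windows held fewer than the Cux2 window. The TATA motif, searched as TATAAA on both strands, was not in it, and 8.20% of all windows held it.

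Cux1 (ENSMUSG00000029705, chr5:136248135-136567490, minus strand) encodes the related cut-homeodomain factor, and alternative splicing of the locus also yields the Golgi protein CASP, which a gene-level count does not separate. The controls measured 275, 271, 241, 279.9 and 263 CPM in replicates 1 to 5. The mutants measured 210.4, 171, 212, 243 and 212 CPM. The mutant sample was lower in 5 of 5 same-numbered pairs, and the ranges overlapped only because Dot1l-cKO replicate 4 was above control replicate 3. The log2 fold change was -0.34 ± 0.089 (SE), with a 95% interval of -0.54 to -0.15 (adjusted p = 0.0407). This call was narrow. It was lost without control replicate 1, 2, 4 or 5 or Dot1l-cKO replicate 1, 3 or 5 (adjusted p = 0.0581 to 0.101), with no low-count filter (adjusted p = 0.0535) and within the 6 samples outside header number 57 (log2 fold change -0.31, adjusted p = 0.101), while its direction did not change in any of these fits.

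Bhlhe22 (ENSMUSG00000025128, chr3:18054174-18057517, plus strand), a gene without introns, encodes a basic helix-loop-helix repressor that acts with PRDM8 in corticospinal and callosal axon growth and in the patterning of cortical areas. It went the other way. The controls measured 174, 149, 176, 131 and 174 CPM in replicates 1 to 5. The mutants measured 270.4, 319.9, 268, 235 and 265 CPM. Every mutant sample was above every control sample. The log2 fold change was 0.76 ± 0.10 (SE), a fold of 1.69 with a 95% interval of 1.44 to 1.98 (adjusted p = 0.00165). Taken alone, the samples with header number 57 gave 0.87 and the other 6 gave 0.68, and Bhlhe22 was called in 10 of 10 fits that left out a sample. Its partner gene Prdm8 measured 43.6 CPM in controls and 41.2 CPM in mutants, with a log2 fold change of -0.08 (adjusted p = 0.704).

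**Figure D2:**
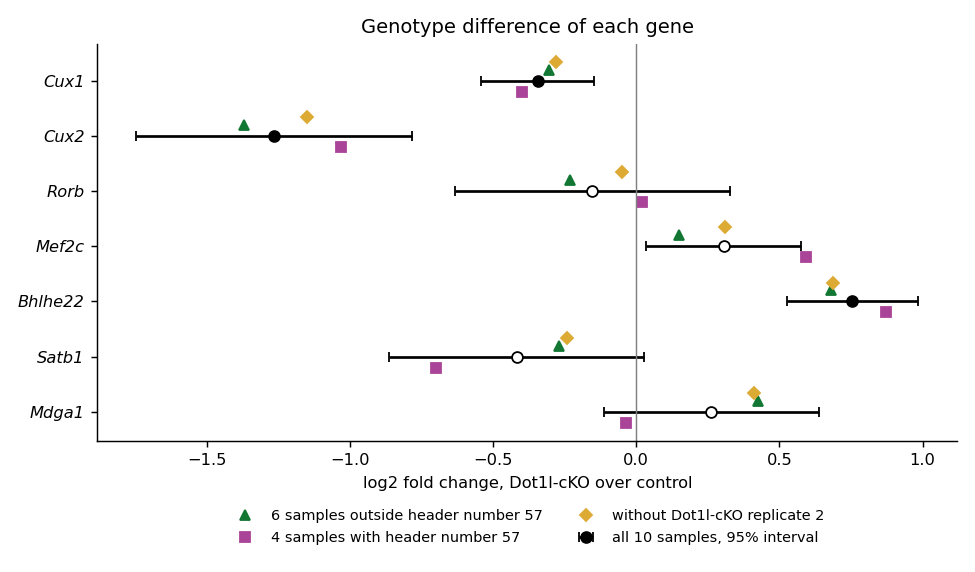
Log2 fold change, Dot1l-cKO over control (horizontal axis), of each gene over all 10 samples with its 95% interval (circles, filled where the adjusted p was under 0.05), within the 6 samples outside header number 57 (triangles), within the 4 samples with it (squares) and without Dot1l-cKO replicate 2 (diamonds). Cux1, Cux2 and Satb1 keep values below 0 and Mef2c and Bhlhe22 values above 0 in all 4 fits, while Rorb and Mdga1 cross 0 within the samples with header number 57.

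Because Bhlhe22 and Cux2 moved apart, their ratio within a sample, which does not depend on library scaling, separated the genotypes widely. Bhlhe22 CPM over Cux2 CPM ranged from 1.36 to 3.23 in controls and from 5.46 to 15.3 in mutants. Cux1 CPM over Cux2 CPM ranged from 2.65 to 4.93 in controls and from 5.64 to 8.18 in mutants, so the 2 cut-homeodomain genes did not keep their proportion. The ratios were formed after the values of the genes were known and are given as a description, with no test.

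**Figure D3:**
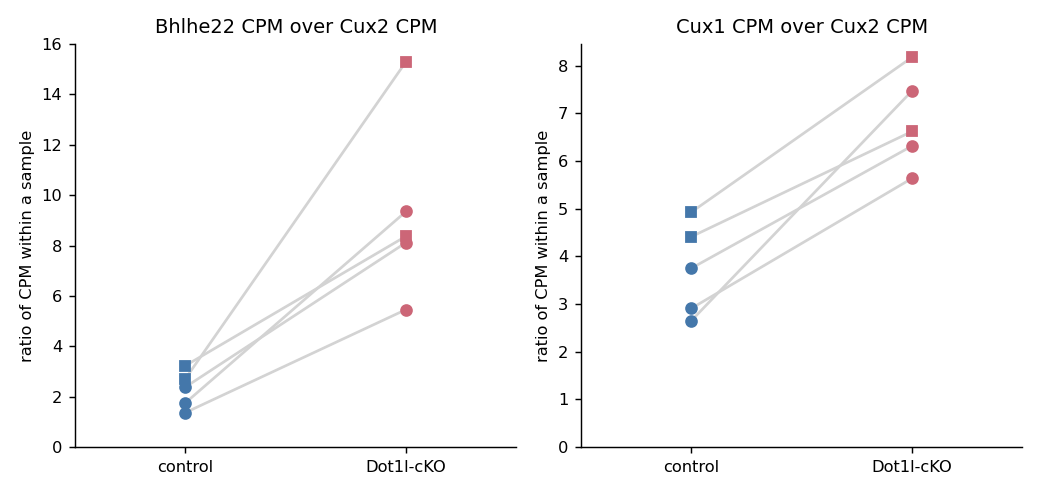
Ratio of Bhlhe22 CPM to Cux2 CPM (left) and of Cux1 CPM to Cux2 CPM (right) within each sample, vertical axes from 0, with squares for header number 57 and lines joining samples with the same replicate number. In both panels every mutant sample lies above every control sample, and the highest Bhlhe22 to Cux2 ratio, 15.3, is that of Dot1l-cKO replicate 2.

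Mef2c (ENSMUSG00000005583, chr13:83504034-83667080, plus strand) encodes a MADS-box factor needed for the migration and maturation of cortical projection neurons. The controls measured 121, 97.0, 88.2, 112 and 148 CPM in replicates 1 to 5. The mutants measured 153, 137.5, 138, 133 and 138 CPM. The mutants were tightly grouped and higher in 4 of 5 same-numbered pairs, and control replicate 5 lay within their range. The log2 fold change was 0.31, with a 95% interval of 0.034 to 0.58, and did not pass the test (adjusted p = 0.187). Without control replicate 5 it was 0.42 and passed (adjusted p = 0.0263). Taken alone, the samples with header number 57 gave 0.59 and the other 6 gave 0.15, a difference that was not tested.

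Mef2c is also expressed in microglia, interneurons and endothelium. All 8 microglia markers tested rose, for example P2ry12 (log2 fold change 1.10, adjusted p = 2.3e-04) and Trem2 (1.11, adjusted p = 0.00215), and their summed level was 34.7 to 59.8 CPM in controls and 70.7 to 107 CPM in mutants. None of 7 endothelium markers was called by edgeR (0 at an unadjusted p under 0.05 and 0 by DESeq2), with sums of 133 to 244 CPM and 121 to 277 CPM. The part of these cells in the Mef2c values was not tested.

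Satb1 (ENSMUSG00000023927, chr17:51736187-51833290, minus strand) encodes a chromatin organiser that is used by upper-layer neurons and by maturing interneurons. The controls measured 108, 105, 87.8, 107 and 108 CPM in replicates 1 to 5. The mutants measured 92.7, 37.1, 80.4, 87.9 and 87.6 CPM. The mutant was lower in 5 of 5 same-numbered pairs, and the ranges overlapped only between 87.8 and 92.7 CPM. The log2 fold change was -0.42, with a 95% interval of -0.86 to 0.028 (adjusted p = 0.276). Without Dot1l-cKO replicate 2, the lowest sample, it was -0.24 (adjusted p = 0.102).

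Markers of interneurons, which enter the cortex from the ventral telencephalon, are given beside Satb1 for this reason. Of 12 tested, all 12 had negative log2 fold changes and 5 were called, led by Lhx6 (-3.00, adjusted p = 0.00187) and Sst (-2.65, adjusted p = 0.0275). Their summed level was 137 to 427 CPM in controls, 45.5 to 134 CPM in mutants and 45.5 CPM in Dot1l-cKO replicate 2. The medial ganglionic eminence gene Nkx2-1 did not pass the filter on low counts, with means of 0.889 CPM in controls and 0.0874 CPM in mutants. The control mean is uneven, with an SD of 1.53 and a range of 0.141 to 3.61 CPM. That range overlapped the mutant range of 0.0483 to 0.189 CPM. The part of interneurons in the Satb1, Mef2c and Cux2 values was not tested.

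Mdga1 (ENSMUSG00000043557, chr17:29827949-29970087, minus strand), whose product binds neuroligins and limits synapse formation, had the lowest coefficient of variation of the set in controls, 4.77%. The controls measured 102, 103, 96.8, 110.4 and 105 CPM in replicates 1 to 5. The mutants measured 129.6, 69.2, 123, 145 and 153 CPM. Replicates 1, 3, 4 and 5 of the mutants were above every control and replicate 2 was below every control. Over all samples the log2 fold change was 0.26, with a 95% interval of -0.11 to 0.64 (adjusted p = 0.440). It was 0.17 without Dot1l-cKO replicate 5, 0.41 and called without Dot1l-cKO replicate 2 (adjusted p = 0.0118), and 0.42 and called within the 6 samples outside header number 57 (adjusted p = 0.0484). Within the samples with header number 57, which include that library, it was -0.03.

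Rorb (ENSMUSG00000036192, chr19:18930605-19111196, minus strand), the gene of an orphan nuclear receptor that later defines layer IV, was the lowest of the set. The controls measured 23.3, 18.4, 11.8, 24.4 and 25.2 CPM in replicates 1 to 5. The mutants measured 25.4, 12.9, 17.3, 19.9 and 17.2 CPM. The groups overlapped over most of their range, and within each group the samples with header number 57 included the lowest. The log2 fold change was -0.15, with a 95% interval of -0.63 to 0.33 (adjusted p = 0.750), so a change of a size within that interval was not resolved. Leaving out a sample moved the value between -0.049 (without Dot1l-cKO replicate 2) and -0.30 (without control replicate 3), with -0.071 without control replicate 5, -0.087 without control replicate 4 and -0.29 without Dot1l-cKO replicate 1. Taken alone, the samples with header number 57 gave 0.02 and the other 6 gave -0.23.

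Dot1l-cKO replicate 2 was the lowest mutant for 5 of the 7 genes and the highest for Bhlhe22. Compared with the mean of the other libraries of its group, its 965 genes spanning over 150 kb had a median log2 deviation of -0.19 and its 2136 genes spanning up to 10 kb one of 0.10, whereas the other 9 libraries, each set against its own group in the same way, lay between -0.14 and 0.13 and between -0.074 and 0.090. The genes of the set span 319 kb (Cux1), 194 kb (Cux2), 181 kb (Rorb), 163 kb (Mef2c), 142 kb (Mdga1), 97.1 kb (Satb1) and 3.34 kb (Bhlhe22). In the same order, their log2 deviations in Dot1l-cKO replicate 2 were -0.36, -0.69, -0.61, -0.03, -0.99, -1.23 and 0.30. The lowest of these were those of Satb1 (97.1 kb) and Mdga1 (142 kb). This was examined after the values were seen, and the part of gene length in them was not tested. Without that library, 4 of the 7 genes were called: Cux1 (log2 fold change -0.28, adjusted p = 0.0479), Cux2 (-1.15), Bhlhe22 (0.69) and Mdga1.

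Levels can be compared between genes per kilobase of annotated exon. In controls Bhlhe22 was highest, at 48.1 ± 5.98 CPM per kb (SD, n = 5). It was followed by Cux1 at 13.3 ± 0.767, Mdga1 at 10.9 ± 0.518, Cux2 at 7.51 ± 2.14, Mef2c at 7.21 ± 1.48, Satb1 at 5.42 ± 0.454 and Rorb at 1.86 ± 0.506 CPM per kb. The ranges of Cux2 and Mef2c overlapped, as did those of Mef2c and Satb1, and the other neighbours in this order did not overlap. In mutants Bhlhe22 was at 81.2 ± 9.15 CPM per kb, and Cux2, at 3.13 ± 0.798 CPM per kb, stood sixth in the order with a range that overlapped those of Satb1 and Rorb. Annotated exon length counts every isoform, so a gene with many rarely used exons reads low on this scale.

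The genes whose log2 CPM followed each of the 7 most closely over the 10 samples were sought among 8717 other genes, those whose log2 CPM averaged 4 or more. Pearson's r is used here only as a measure of likeness, and for all 7 genes it includes any difference between the genotypes. It also includes the values of Dot1l-cKO replicate 2, the lowest mutant for 5 of the 7 genes and the highest for Bhlhe22. That library lay farthest from the other mutants for Satb1 and Mdga1. Rgs8, a regulator of G-protein signalling, came closest to Cux2 (r = 0.988) and fell itself from 39.9 to 25.1 CPM (log2 fold change -0.67, adjusted p = 0.00499). Zfp618 was next for Cux2 (0.969). Foxn3 (0.978) and Zfp532 (0.957) were closest to Cux1, and Chst2 (0.974) and Maged2 (0.970) to Bhlhe22. The study lists Chst2 as a gene of lower-layer neurons. Ago2 (0.987) and Ncoa5 (0.980) were closest to Satb1, Aff1 (0.969) and Lrrn2 (0.967) to Mdga1, Parp8 (0.959) and Scn2a (0.958) to Mef2c, and Tab3 (0.962) and Gm17131 (0.960) to Rorb.

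Of the other upper-layer genes, only those on the study's list were called in both directions. Of 9 further upper-layer genes used in the study, 3 increased and 3 decreased. Glra2, a glycine receptor subunit, rose by 1.14 on the log2 scale (adjusted p = 0.00165) and Plxnd1, a semaphorin receptor, by 0.78 (adjusted p = 0.00884). Pou3f3, a POU factor of upper-layer neurons and progenitors, fell by 0.68 (adjusted p = 0.00140), and Rgs8 is the gene named above beside Cux2. The study shows these genes as differentially expressed in these same samples. All 9 had an unadjusted p under 0.05 and were called by DESeq2. That they were called, and in which direction, is therefore not independent evidence. Of 12 upper-layer genes from general knowledge, none was called as increased by edgeR (0 at an unadjusted p under 0.05 and 0 by DESeq2). The 2 that decreased were Lhx2, a homeodomain selector of cortical identity (-1.21, adjusted p = 1.2e-04), and Pou3f1 (-0.55, adjusted p = 0.0357). Over that list 10 log2 fold changes were negative and 2 positive, with a median of -0.37. Lhx2 is also expressed in cortical progenitors, and the study places it with genes of the ventricular and subventricular zones.

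Genes of the deep layers gave a reference for the same tissue. Of 8, 1 was called by edgeR (3 at an unadjusted p under 0.05 and 2 by DESeq2). Crym, a thyroid hormone-binding protein gene, rose by 2.07 (adjusted p = 3.5e-04). Bcl11b (0.06, adjusted p = 0.798) and Tbr1 (0.20, adjusted p = 0.708) did not pass the test. Neither did Foxp2 (-0.53, adjusted p = 0.166) and Sox5 (-0.27, adjusted p = 0.102). Of the 8 deep-layer genes, 5 had positive and 3 had negative log2 fold changes. Of 10 tested relatives of the 7 genes edgeR called none (3 at an unadjusted p under 0.05 and 2 by DESeq2). The lowest log2 fold changes among them were those of Olig3 (-1.66, adjusted p = 0.351), Olig1 (-1.65, adjusted p = 0.118) and Olig2 (-1.31, adjusted p = 0.129). Mef2a measured 59.6 and 53.2 CPM and Mdga2 11.4 and 9.94 CPM in controls and mutants. Of 8 partner genes, 1 was called: Nlgn1, a neuroligin gene, rose by 0.53 (adjusted p = 0.0326).

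None of 8 general neuron markers was called by edgeR (2 at an unadjusted p under 0.05 and 1 by DESeq2), and none of 6 intermediate progenitor markers (0 and 0). Of 8 radial glia markers 3 rose, led by Fabp7 (log2 fold change 0.62, adjusted p = 0.0122) and Vim (0.53, adjusted p = 0.00451), and Pax6 fell (-0.36, adjusted p = 0.0294). The radial glia list was mixed, with 5 of the 8 negative and a median of -0.18. Sox2 was among the negative ones and did not pass the test (-0.38, adjusted p = 0.0639). Of 5 markers of Cajal-Retzius neurons, the reelin-producing cells of the marginal zone, 3 were called as increased, led by Calb2 (1.40, adjusted p = 0.0214). All 5 had positive log2 fold changes, with 5 at an unadjusted p under 0.05 and 4 called by DESeq2. None of 9 striatum markers was called by edgeR (1 at an unadjusted p under 0.05 and 0 by DESeq2), and all 9 had negative log2 fold changes. Of 3 thalamus markers tested, Lhx9 rose (0.77, adjusted p = 0.0111), while Tcf7l2 (-1.15, adjusted p = 0.112) and Olig3 (-1.66, adjusted p = 0.351) had negative values that did not pass the test. Of 3 eye markers tested, Dct fell (-2.37, adjusted p = 0.00441), while Mitf (0.26, adjusted p = 0.780) and Tyr (0.30, adjusted p = 0.612) had positive values that did not pass.

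**Figure D4:**
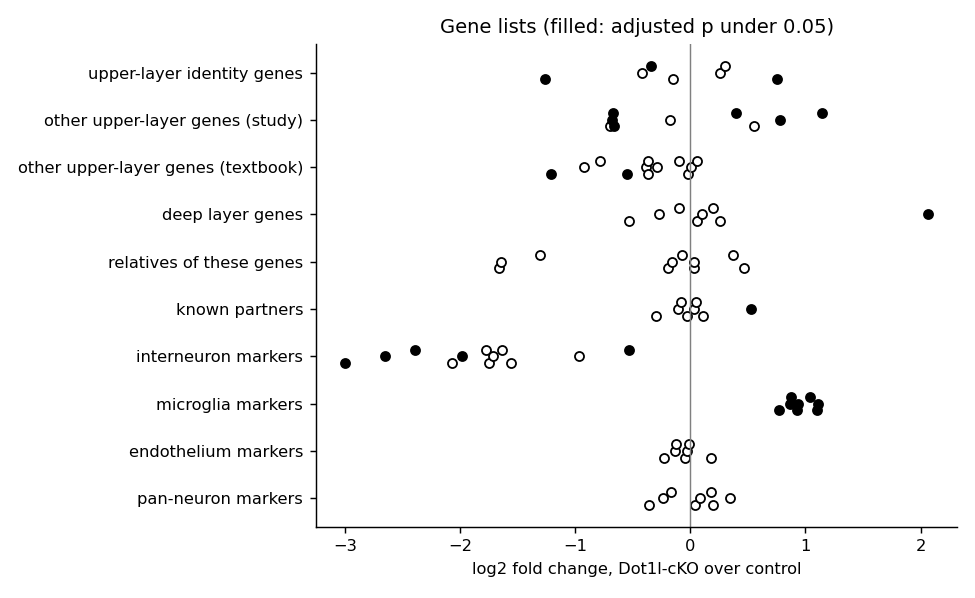
Log2 fold change, Dot1l-cKO over control (horizontal axis), of each tested gene in 10 lists, with filled circles for an adjusted p under 0.05. The upper-layer lists hold filled circles on both sides of 0 or below it, all 8 microglia markers lie above 0, and all 12 interneuron markers lie below it.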

How the data were processed

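The authors made stranded libraries from total RNA depleted of ribosomal RNA and, per the labels, processed reads with Trim Galore 0.2.8, TopHat2 2.0.9 (mm10) and HTSeq 0.6.0. The deposited counts are whole reads per Ensembl gene, not normalised. The other deposited tables hold a signal, the counts divided by size factors from DESeq2 1.6.1, and served only for the numbers in their headers. Symbols, coordinates and exon lengths came from GENCODE release 21 for mouse (GRCm38).

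Counts were tested in R 4.3.3 with edgeR 4.0.16 (filterByExpr, TMM, glmQLFit and glmQLFTest with no covariate, Benjamini-Hochberg adjustment over 17039 genes, threshold 0.05). Standard errors were taken as the absolute log2 fold change over the root of F. log2 CPM used a prior count of 2. The pipeline was tested on simulated data. DESeq2 1.42.0, other size factors and filters, blocks, subsets of samples and each sample left out were alternatives.

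The 7 genes, the lists and the tests were chosen with earlier results of these data known. All 7 genes are named. From each list at most 2 called genes in each direction are named, by size, beside genes that a result turns on. Prdm8, Mef2a, Mdga2, Olig1, Olig2, Olig3, Tcf7l2, Mitf and Tyr were named outside this rule, after their values were seen. So were Bcl11b, Tbr1, Foxp2, Sox5, Sox2, Neurod6, Eomes, Nkx2-1 and Crx. Per the study's methods, every n of an in vivo experiment was another animal; the labels name no animals. Deviations from the group means correlated at 0.229, 0.349, 0.145, 0.597 and 0.131 between same-numbered samples, all above 0.1, and replicate numbers were therefore treated as pairs in the blocked alternative. Some differently numbered samples correlated as much or more (control replicate 3 with Dot1l-cKO replicate 5 at 0.446, control replicate 2 with Dot1l-cKO replicate 3 at 0.350, control replicate 5 with Dot1l-cKO replicate 4 at 0.294). Annotations that overlap these genes on the same strand held at most 513 counts in all samples, beside 53678 for Satb1. RefSeq promoter windows were found for 6 of the 7 genes, and Bhlhe22 had no entry. The gene that carries the Cre allele is not reported here.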

Additional observations from a re-analysis of the deposited data

Results flagged for a closer look

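In groups of 5 samples, a sample was singled out when its gap to the nearest other, on the log2 CPM scale, exceeded 0.71 of the group's range, which chance gives in about 1 of 20 groups. Of 16 groups examined (the 7 genes and Dot1l in each genotype), 5 held such a sample. Dot1l-cKO replicate 2 was far below the other mutants for Satb1 (37.1 CPM, gap 0.844 of the range), for Mdga1 (69.2 CPM, 0.730) and for Dot1l (20.1 CPM, 0.717). Control replicate 3 was below the other controls for Satb1 (87.8 CPM, 0.857). Dot1l-cKO replicate 1 was above the other mutants for Mef2c (153 CPM, 0.727).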

How the results depend on the processing

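With 5 samples a group, the 95% intervals of Rorb, Satb1 and Mdga1 included 0. Over all genes 1212 were called. The count was 2001 with DESeq2, 495 at an adjusted p under 0.01, 745 within the 6 samples outside header number 57 and 1 within the 4 samples with it, where fewer samples entered the fit (2434 genes at an unadjusted p under 0.05). It was 750 to 1357 when a sample was left out, with 750 without control replicate 1 and 779 without control replicate 4. Of the 7 genes, 3 were called, 2 to 4 when a sample was left out, and 0 by edgeR within the samples with header number 57 (4 at an unadjusted p under 0.05). Of 140 values of single genes under the alternatives, 122 had the sign and the call of the reported fit, 13 lost the call, 3 gained it and 2 turned direction: Rorb (0.020) and Mdga1 (-0.034), both within the samples with header number 57. The cause was not tested. With the replicate number as a block, 1604 genes and 3 of the 7 were called. The pairing changed no call among the 7 genes.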
